A study of Mus musculus with 12 samples.

Results

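The genes described are 42 neuronal synapse and channel genes, chosen by name for their roles in transmitter release, neuronal structure, transmitter synthesis, synaptic reception, excitability and interneuron identity. Each was measured by the probe set (the group of array probes summarised to 1 value) that carried exactly that symbol in the array annotation, taking the brightest over all arrays where a gene had several. This gave values for 41 of the 42 genes, out of 22180 genes with a single symbol; Grin1 was not analysed here. Total RNA came from GL261 tumour masses, a mouse glioblastoma cell line implanted in the brains of male C57BL/6 mice aged 8 weeks and taken on day 16 after injection. The 12 arrays fall into 4 groups of 3: Control, TMZ (temozolomide, an alkylating drug, 30 mg/kg into the peritoneum), Anti-PD-1 (an antibody to PD-1, an inhibitory receptor of T cells, given 2 times per week by the intravenous route at 10 mg/kg) and Combination (both agents). All groups carried the same implant. The labels say neither what the Control mice received nor on which days the agents were given. Nothing in them ties each array to a separate mouse, so the p-values measure the spread between these arrays.

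Neurons release transmitter when calcium enters the axon terminal and SNARE proteins such as SNAP25, syntaxin and VAMP fuse vesicles with the membrane. Glutamate and GABA then open receptor channels on the receiving cell, which are held in place by scaffolds such as PSD-95, and voltage-gated sodium and potassium channels carry the impulse onward. A GL261 mass grows within brain tissue, and neuronal transcripts in an extract of such a mass are ordinarily those of the surrounding or enclosed brain. In a bulk extract, fewer neurons and less RNA per neuron cannot be told apart.

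Promoter sequences are shown for 4 genes to which the results return: Scn9a and Scn1a, the neighbouring sodium channel genes with the smallest p in the comparison of all groups, and Sst and Vip, interneuron peptide genes whose promoters hold a motif that was searched. Each is the 250 bases before the annotated start (RefSeq, GRCm38.p6), written 5′ to 3′ on the gene's own strand, with capitals marking a motif. Scn9a lies at chr2:66634963-66635212 on the minus strand, Scn1a at chr2:66440838-66441087 on the minus strand, Sst at chr16:23890845-23891094 on the minus strand and Vip at chr10:5638968-5639217 on the plus strand.
Scn9a: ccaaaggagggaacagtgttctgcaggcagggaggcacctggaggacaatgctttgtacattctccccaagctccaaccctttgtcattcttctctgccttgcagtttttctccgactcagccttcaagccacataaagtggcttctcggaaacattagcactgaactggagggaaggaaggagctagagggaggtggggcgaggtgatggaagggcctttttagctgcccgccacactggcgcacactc
Scn1a: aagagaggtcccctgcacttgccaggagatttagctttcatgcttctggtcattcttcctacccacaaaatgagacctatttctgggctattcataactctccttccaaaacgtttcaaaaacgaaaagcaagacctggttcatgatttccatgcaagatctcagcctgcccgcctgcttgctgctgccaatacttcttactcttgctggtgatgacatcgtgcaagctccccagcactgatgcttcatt
Sst: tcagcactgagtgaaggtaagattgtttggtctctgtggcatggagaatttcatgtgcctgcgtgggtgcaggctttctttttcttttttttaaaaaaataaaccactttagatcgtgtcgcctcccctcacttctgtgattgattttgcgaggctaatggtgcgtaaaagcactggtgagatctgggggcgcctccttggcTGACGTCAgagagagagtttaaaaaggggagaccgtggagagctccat
Vip: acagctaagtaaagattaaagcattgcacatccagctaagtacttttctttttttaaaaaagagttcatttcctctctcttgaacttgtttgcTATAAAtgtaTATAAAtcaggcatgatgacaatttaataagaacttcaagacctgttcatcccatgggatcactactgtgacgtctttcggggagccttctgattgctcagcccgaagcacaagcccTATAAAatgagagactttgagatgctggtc
Of the 41 genes, 28 had at least 1 entry in the promoter table, with 38 windows in all. The cyclic AMP response element TGACGTCA, its own reverse complement, was found in the windows of Sst and Syn1, and in 1.55% of all 32851 windows of that length. In Sst it begins 48 bases before the start. The TATA motif TATAAA, searched on both strands, was found in 5 of the 38 windows (Eno2, Gabrb2, Gad1, Scn2a and Vip) and in 12.4% of all windows. The 3 copies in Vip begin 157, 147 and 30 bases before the start. The core of the RE1 element bound by the neuronal gene repressor REST, searched on both strands, was in 0 of the 38 windows and in 0.0335% of all windows. No printed window holds more than 1 of these motifs.

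Arrays give no read depth, and 3 per group limit the precision. The 22180 genes were fitted together with limma. A gene counts as called when its p-value, Benjamini-Hochberg adjusted over all of them, is under 0.05. A principal component analysis of all genes placed 2 Control arrays apart: replicates 1 and 2 scored -20.1 and -26.4 on the leading axis (26.6% of variance), against -1.28 for replicate 3 and -4.10 to 13.9 for treated arrays. On the third axis TMZ replicate 2 scored 20.9. Counts higher and lower than Control in the gene lists described are also given without Control replicates 1 and 2.

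Signals of the 41 genes were steady across the 12 arrays. The distance between the highest and the lowest array ran from 0.11 log2 in Gria1, an AMPA receptor subunit, to 0.61 in Pvalb, with a median of 0.26. The pooled standard deviation within groups was below that of the median gene (0.12) for 37 of the 41 genes, and their own median was 0.07. All 41 genes had a mean signal above that of the median gene (5.72 log2), and their spread was not compared with genes of like brightness. Mean signals ran from 5.83 log2 in Scn9a to 12.2 in Snap25. These levels depend on each gene's probes and do not rank the genes by expression.

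**Figure D1:**
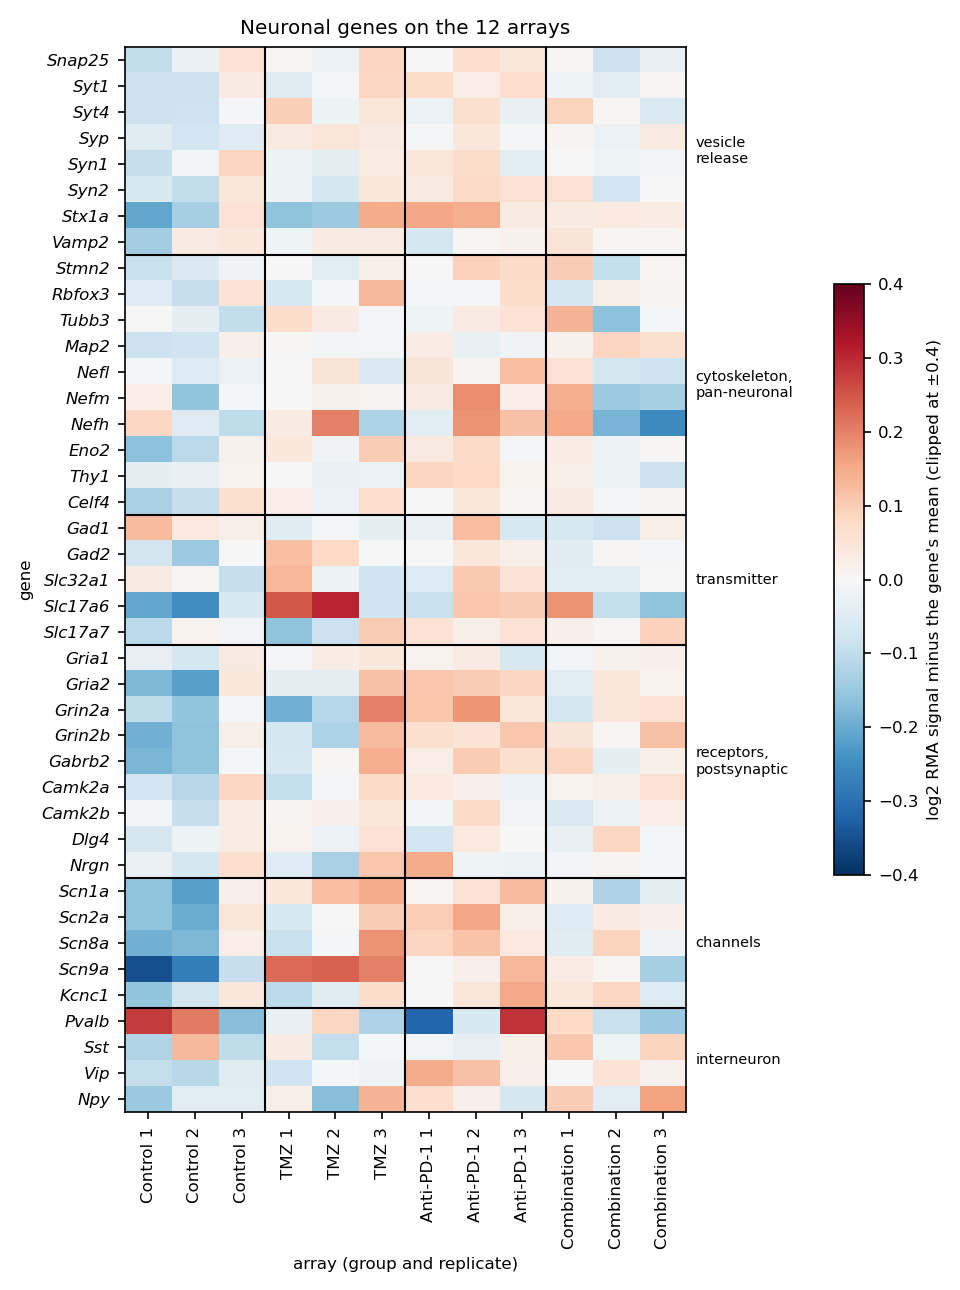
Log2 RMA signal of each of the 41 neuronal genes (rows, grouped by role) on each array (columns, grouped by treatment), minus the gene's mean over the 12 arrays. Control replicates 1 and 2 are mostly blue, and 28 of the 41 genes have their lowest value on 1 of them.

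What differed most among the Control arrays was shared by many of these genes. Control replicates 1 and 2 held the lowest value of 28 of the 41 genes, whereas 24.5% of all genes had their lowest value there. Control replicate 3 was the highest Control array for 30 of the 41 genes and the lowest for 5. Averaged over the 41 genes, after subtracting each gene's mean, Control replicates 1 to 3 lay at -0.08, -0.08 and 0.00 log2. The TMZ arrays lay at -0.01, -0.00 and 0.05, the Anti-PD-1 arrays at 0.02, 0.06 and 0.04, and the Combination arrays at 0.03, -0.02 and -0.01. The 3 Anti-PD-1 arrays thus lay above all 3 Control arrays, while the TMZ and Combination arrays overlapped with Control replicate 3.

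The alkylating drug alone was set against Control first, and most neuronal genes had slightly higher signals: 36 of 41 were higher and 5 lower, with a median log2 difference of 0.05 against 0.01 over all genes, of which 52.1% were higher. In limma 0 of the 41 were called, where 0.0992% of all genes were; at an unadjusted p under 0.05 there were 4 (Scn9a, Scn1a, Slc17a6 and Gad2), all higher, where 11.3% of all genes had such a p, 5.47% higher and 5.78% lower. The TMZ arrays lay wholly above the Control arrays for 4 genes (8.19% of all genes did) and wholly below for Gad1 alone, where 6.81% of all genes did. Without Control replicates 1 and 2 the median was -0.01 and 19 of 41 were higher.

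Under the antibody alone the neuronal genes were above Control in 39 of 41 cases, the exceptions being Gad1 and Pvalb. Their median difference was 0.08 log2, against 0.01 over all genes, of which 52.4% were higher. In limma 0 were called (0.293% of all genes were), and 9 had an unadjusted p under 0.05, all higher, where 13.5% of all genes had such a p, 6.7% higher and 6.79% lower. The Anti-PD-1 arrays lay wholly above the Control arrays for 12 of the 41 genes, where 10.3% of all genes did, and wholly below for 0, where 8.33% did. Without Control replicates 1 and 2 the median was 0.05 with 29 of 41 higher.

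With both agents 33 of the 41 genes were higher and 8 lower, with a median of 0.07 against 0.00 over all genes, of which 50.2% were higher. In limma 0 were called, as were 0% of all genes, and Scn9a alone had an unadjusted p under 0.05, where 11.6% of all genes did, 5.43% higher and 6.18% lower. Combination arrays lay wholly above Control for Vip and Syp, where 8.98% of all genes did, and wholly below for 0, where 7.82% did. Without Control replicates 1 and 2 the median was -0.01 and 17 were higher. The 3 comparisons share the same Control arrays and are not independent of each other.

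**Figure D2:**
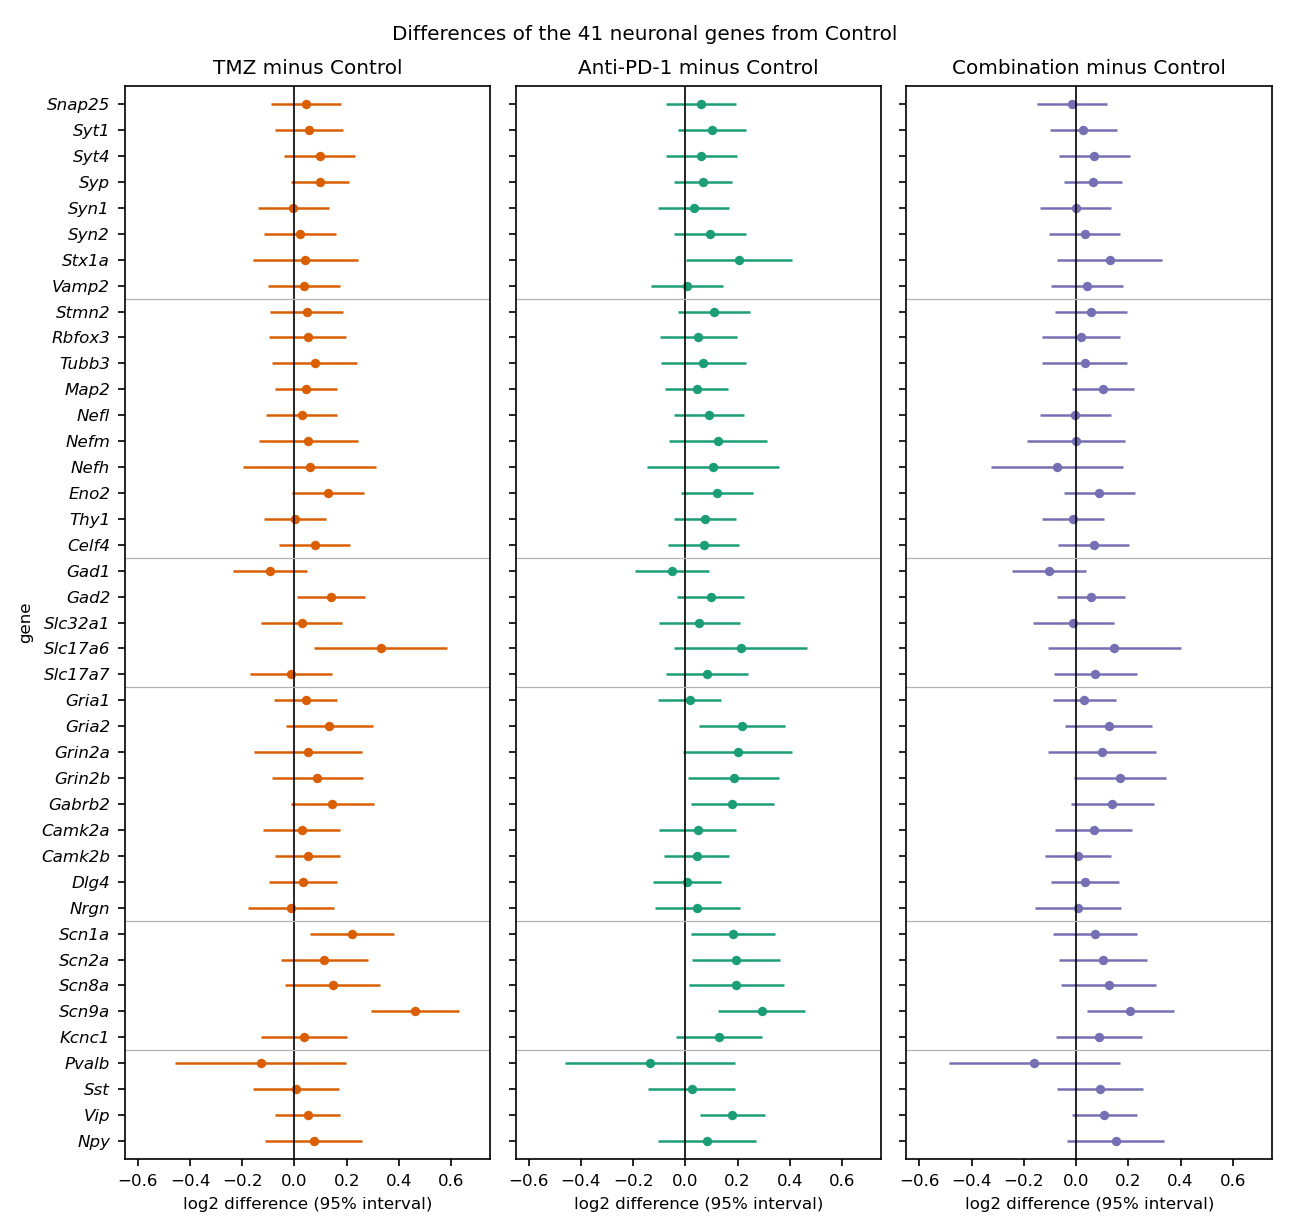
Log2 difference of each of the 41 neuronal genes from Control (points) with its 95% confidence interval from limma (lines), for TMZ, Anti-PD-1 and Combination; grey lines separate the roles. Most points lie to the right of 0 and most intervals cross it; Scn9a in TMZ is farthest out, at 0.46.

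The voltage-gated channels were higher in each comparison, in 5 of 5 genes, with medians of 0.15 log2 in TMZ, 0.19 in Anti-PD-1 and 0.10 in Combination. Without Control replicates 1 and 2 the counts were 3, 5 and 1 of 5 and the medians 0.00, 0.04 and -0.02; Scn2a turned to -0.0367 in TMZ and -0.0488 in Combination, and Scn1a to -0.0693 in Combination. Scn9a (probe set 17386052) encodes Nav1.7, a sodium channel best known from pain-sensing neurons. It had the lowest mean signal of the genes described, 5.83 log2, near the 5.72 of the median gene. Its log2 signals were 5.48, 5.56 and 5.74 in Control, 6.06, 6.07 and 6.03 in TMZ, 5.83, 5.85 and 5.96 in Anti-PD-1, and 5.86, 5.84 and 5.70 in Combination. All TMZ and Anti-PD-1 arrays lay above the highest Control array, and all TMZ arrays above every other array, whereas Combination replicate 3 lay below Control replicate 3. The TMZ mean of 6.05 ± 0.02 (SD, n = 3) was 1.38-fold that of Control at 5.59 ± 0.13, a log2 difference of 0.46 ± 0.08 (SE; limma adjusted p = 0.0566), which missed the threshold. It was called without Control replicate 3 (0.54, limma adjusted p = 0.00778), with a variance trend (adjusted p = 0.0315) and with array medians subtracted (0.0493). It was also called with dim genes left out (limma adjusted p = 0.0296), a cut at the median gene that left 11090 genes tested. It was 0.45 without TMZ replicate 2 (0.310) and 0.31 without Control replicates 1 and 2, and over all 20 alternatives the limma adjusted p ran from 0.00778 to 0.951. The differences were 0.29 ± 0.08 in Anti-PD-1 (adjusted p = 0.125) and 0.21 ± 0.08 in Combination (adjusted p = 0.341), the first of which was called without Control replicate 3 (adjusted p = 0.0243).

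Scn1a (probe set 17386018), which encodes Nav1.1, the channel of fast-spiking inhibitory neurons, read 8.64, 8.58 and 8.82 in Control, 8.84, 8.92 and 8.95 in TMZ, 8.81, 8.86 and 8.93 in Anti-PD-1, and 8.82, 8.68 and 8.76 in Combination. Only the TMZ arrays lay clear of Control, by a narrow gap to Control replicate 3. Its differences were 0.22 ± 0.07 in TMZ (adjusted p = 0.294), 0.18 ± 0.07 in Anti-PD-1 (0.303) and 0.07 ± 0.07 in Combination (0.756). Scn2a (probe set 17371221), encoding Nav1.2 of excitatory axons, read 9.76, 9.72 and 9.96 in Control, 9.85, 9.91 and 10.02 in TMZ, 10.01, 10.07 and 9.94 in Anti-PD-1, and 9.86, 9.95 and 9.94 in Combination. Control replicate 3 lay within the range of the treated arrays, and the groups overlapped throughout. The largest difference of Scn2a was 0.19 ± 0.08 in Anti-PD-1 (limma adjusted p = 0.291). Scn8a, which encodes Nav1.6 of the axon initial segment, differed by 0.15 ± 0.08, 0.20 ± 0.08 and 0.12 ± 0.08 in TMZ, Anti-PD-1 and Combination. Kcnc1, the fast-spiking potassium channel Kv3.1, was at 0.04 ± 0.08, 0.13 ± 0.08 and 0.09 ± 0.08. On mouse chromosome 2, Scn3a, Scn2a, Scn1a, Scn9a and Scn7a follow each other in that order among the sodium channel genes, and Scn8a lies on chromosome 15.

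**Figure D3:**
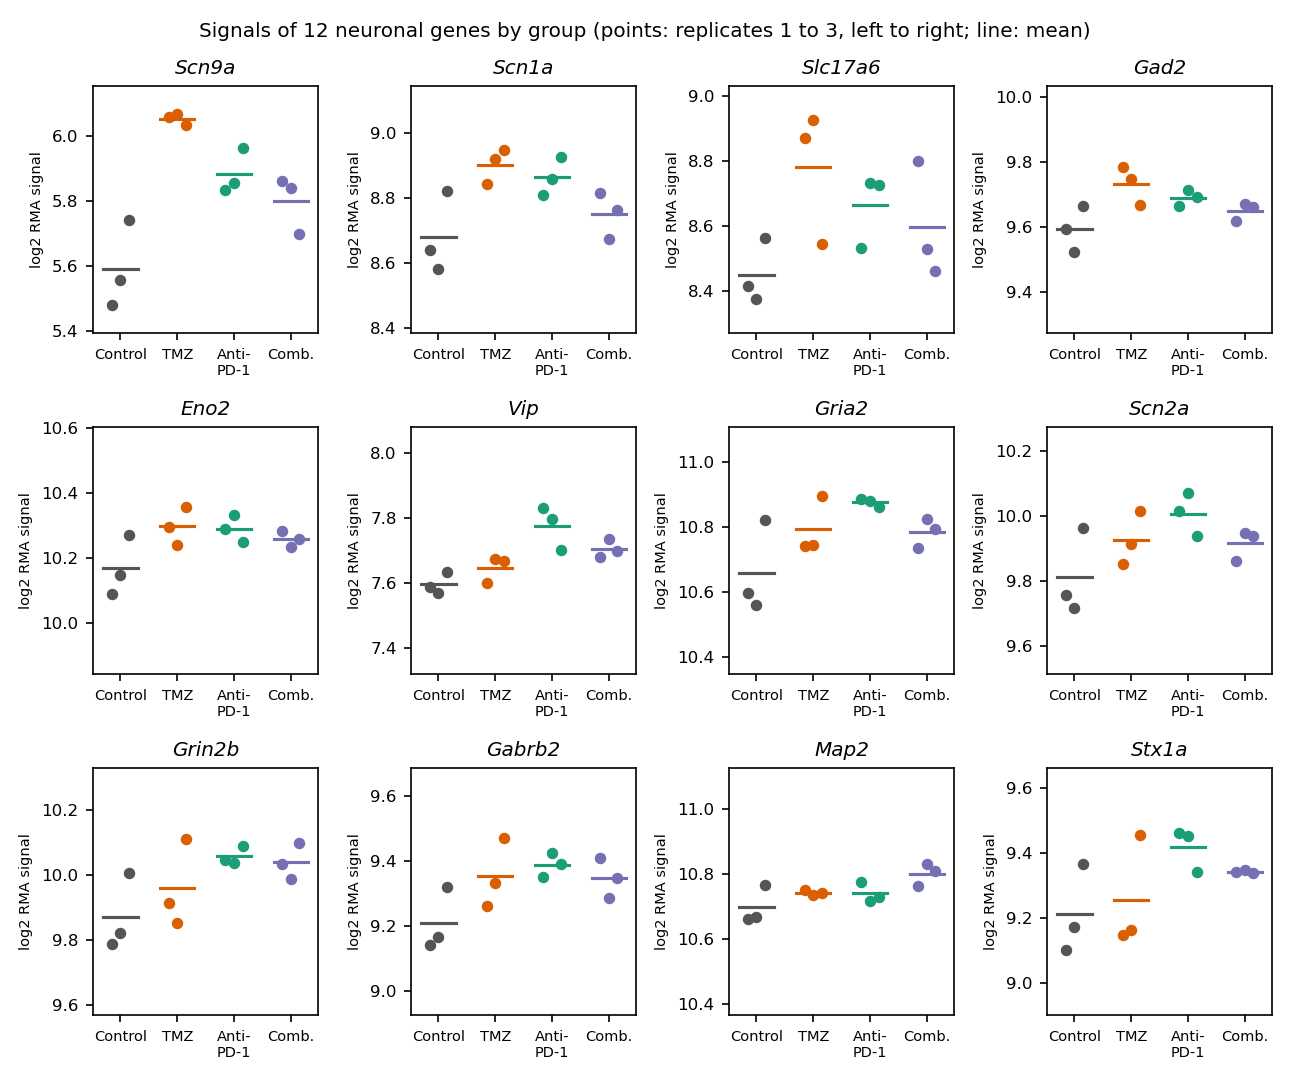
Log2 RMA signals of the 12 genes given array by array (points are replicates 1 to 3 from left to right, lines are group means, and all panels span the same log2 distance). Scn9a in TMZ (6.03 to 6.07) is the panel with the clearest gap to Control (5.48 to 5.74), and in most other panels Control replicate 3 reaches the treated arrays.

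Receptor and postsynaptic genes were higher in 8 of 9 cases in TMZ and in 9 of 9 in Anti-PD-1 and in Combination, with medians of 0.05, 0.05 and 0.07 log2. With Control replicate 3 as the only Control array they were higher in 1, 4 and 3 of 9, with medians of -0.03, -0.01 and -0.03. The larger values were in glutamate and GABA receptor subunits. Gria2 (probe set 17406145) encodes the AMPA receptor subunit that limits calcium entry. Its signals were 10.60, 10.56 and 10.82 in Control, 10.74, 10.74 and 10.90 in TMZ, 10.89, 10.88 and 10.86 in Anti-PD-1, and 10.73, 10.83 and 10.79 in Combination. Anti-PD-1 alone lay above all Control arrays, with a difference of 0.22 ± 0.08 (1.16-fold, limma adjusted p = 0.235). It was called without Control replicate 3 (0.30, adjusted p = 0.0435), and without Control replicates 1 and 2 it was 0.05, with an adjusted p from 0.0435 upward over the 20 alternatives. The differences of Gria2 were 0.13 ± 0.08 in TMZ and 0.12 ± 0.08 in Combination.

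Grin2b (probe set 17472089), an NMDA receptor subunit prominent in the forebrain, read 9.79, 9.82 and 10.01 in Control, 9.91, 9.85 and 10.11 in TMZ, 10.05, 10.04 and 10.09 in Anti-PD-1, and 10.03, 9.99 and 10.10 in Combination. Anti-PD-1 lay just above Control, and Combination replicate 2 lay below Control replicate 3. Its differences were 0.09 ± 0.08, 0.19 ± 0.08 and 0.17 ± 0.08 in TMZ, Anti-PD-1 and Combination (adjusted p = 0.728, 0.338 and 0.450). A dimmer probe set of Grin2b (mean 4.68 log2) was at -0.10, -0.02 and -0.12. Gabrb2 (probe set 17248539), a subunit of the GABA-A receptor, read 9.14, 9.16 and 9.32 in Control, 9.26, 9.33 and 9.47 in TMZ, 9.35, 9.42 and 9.39 in Anti-PD-1, and 9.41, 9.29 and 9.35 in Combination. Control replicate 3 again stood apart from the other Control arrays and overlapped with TMZ and Combination. Gabrb2 differed by 0.14 ± 0.07, 0.18 ± 0.07 and 0.14 ± 0.07 (adjusted p = 0.486, 0.304 and 0.495). The NMDA subunit gene Grin2a was at 0.20 ± 0.09 in Anti-PD-1, and within TMZ it spread from 8.57 to 8.96. Differences stayed between -0.01 and 0.07 in Gria1, in the kinase genes Camk2a and Camk2b, in Dlg4, which encodes PSD-95, and in Nrgn, a postsynaptic calmodulin-binding protein.

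Genes of vesicle release were higher in 7 of 8 cases in TMZ, 8 in Anti-PD-1 and 6 in Combination, with medians of 0.04, 0.06 and 0.04 log2. These were 2, 5 and 2 of 8 without Control replicates 1 and 2, with medians of -0.03, 0.01 and -0.04. Stx1a (probe set 17443166), the syntaxin of the fusion complex, read 9.10, 9.17 and 9.37 in Control, 9.15, 9.16 and 9.46 in TMZ, 9.46, 9.45 and 9.34 in Anti-PD-1, and 9.34, 9.35 and 9.34 in Combination. In Control and in TMZ replicate 3 lay far above the other arrays, so the groups overlapped. Its differences were 0.04 ± 0.09, 0.21 ± 0.09 and 0.13 ± 0.09 (adjusted p = 0.902, 0.360 and 0.626). Syp, encoding the vesicle protein synaptophysin, had the tightest arrays, at 10.78, 10.76 and 10.78 in Control against 10.87, 10.88 and 10.87 in TMZ. The TMZ arrays lay above Control, by 0.10 ± 0.05 (limma adjusted p = 0.496). Snap25, the SNARE protein of the terminal, differed by 0.04 ± 0.06, 0.06 ± 0.06 and -0.02 ± 0.06, and the calcium sensor gene Syt1 by 0.06 ± 0.06, 0.10 ± 0.06 and 0.03 ± 0.06. Syt4, Syn1, Syn2 and Vamp2 lay between -0.00 and 0.10 in all 3 comparisons. Dimmer probe sets ran from -0.11 to 0.10 in Syt4 and from 0.01 to 0.12 in Syp.

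Cytoskeletal and pan-neuronal genes were higher in 10 of 10 cases in TMZ and in Anti-PD-1 and in 7 of 10 in Combination, with medians of 0.05, 0.08 and 0.03. Against Control replicate 3 alone they were higher in 6, 7 and 4 of 10, with medians of 0.01, 0.06 and -0.01. Eno2 (probe set 17470846), the neuronal enolase, read 10.09, 10.15 and 10.27 in Control, 10.30, 10.24 and 10.36 in TMZ, 10.29, 10.33 and 10.25 in Anti-PD-1, and 10.28, 10.23 and 10.26 in Combination. Every treated array lay above Control replicates 1 and 2, and Control replicate 3 lay among the treated arrays. Its differences were 0.13 ± 0.06, 0.12 ± 0.06 and 0.09 ± 0.06 (adjusted p = 0.477, 0.428 and 0.620). Map2 (probe set 17213770), the dendritic microtubule protein, read 10.66, 10.67 and 10.77 in Control, 10.75, 10.74 and 10.74 in TMZ, 10.78, 10.72 and 10.73 in Anti-PD-1, and 10.76, 10.83 and 10.81 in Combination, with a largest difference of 0.10 ± 0.05 in Combination (adjusted p = 0.501). The groups overlapped. The neurofilament genes Nefl, Nefm and Nefh of large axons were at 0.03 ± 0.06, 0.05 ± 0.09 and 0.06 ± 0.12 in TMZ, at 0.09 ± 0.06, 0.13 ± 0.09 and 0.11 ± 0.12 in Anti-PD-1, where Nefl lay above all Control arrays, and at -0.00 ± 0.06, 0.00 ± 0.09 and -0.07 ± 0.12 in Combination. Rbfox3, the NeuN gene, Tubb3, Stmn2, Thy1 and Celf4 lay between -0.01 and 0.11.

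Transmitter genes were higher in 3 of 5 cases in TMZ, 4 in Anti-PD-1 and 3 in Combination, with medians of 0.03, 0.08 and 0.06. Leaving out Control replicates 1 and 2, the counts were 3, 4 and 3 and the medians 0.07, 0.06 and 0.03. Slc17a6 (probe set 17478459) encodes VGLUT2, the vesicular glutamate transporter of thalamic and other subcortical neurons. It read 8.41, 8.37 and 8.56 in Control, 8.87, 8.93 and 8.54 in TMZ, 8.53, 8.73 and 8.73 in Anti-PD-1, and 8.80, 8.53 and 8.46 in Combination. TMZ replicates 1 and 2 and Combination replicate 1 were high, and each group reached into the Control range. Its difference in TMZ was 0.33 ± 0.12 (limma adjusted p = 0.319), and 0.45 without TMZ replicate 3. In Anti-PD-1 it was 0.21 ± 0.12 and in Combination 0.15 ± 0.12. Slc17a7, which encodes VGLUT1 of cortical and hippocampal neurons, read 10.09 and 10.17 in the 2 TMZ arrays where Slc17a6 was high, against 10.36 in replicate 3 and 10.15 to 10.27 in Control. Its differences from Control were -0.01 ± 0.07, 0.08 ± 0.07 and 0.07 ± 0.07.

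Gad1 and Gad2 encode the enzymes that make GABA, and they lay on opposite sides of Control. Gad2 (probe set 17367510) read 9.59, 9.52 and 9.66 in Control, 9.79, 9.75 and 9.67 in TMZ, 9.66, 9.71 and 9.69 in Anti-PD-1, and 9.62, 9.67 and 9.66 in Combination. The TMZ arrays lay above Control, the lowest of them by a narrow gap, with a difference of 0.14 ± 0.06 (adjusted p = 0.404). In Anti-PD-1 and Combination it was 0.10 ± 0.06 and 0.06 ± 0.06. Gad1 was at -0.09 ± 0.07, -0.05 ± 0.07 and -0.10 ± 0.07 (adjusted p from 0.574 to 0.780), with Control arrays at 6.64, 6.55 and 6.54 and TMZ arrays at 6.47, 6.51 and 6.48. Whether Gad1 and Gad2 differ in response was not tested. Slc32a1, the vesicular GABA transporter, was at 0.03 ± 0.07, 0.05 ± 0.07 and -0.01 ± 0.07. A dimmer probe set of Slc32a1 (mean 5.49 log2) was at 0.06, -0.13 and -0.23.

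Of the 4 interneuron markers, 3 were higher in each comparison and Pvalb was lower, with medians of 0.03, 0.05 and 0.10; without Control replicates 1 and 2, 4 of 4 were higher in each, with medians of 0.06, 0.12 and 0.12. Vip (probe set 17231482), the vasoactive intestinal peptide gene whose promoter is printed above, read 7.59, 7.57 and 7.63 in Control, 7.60, 7.67 and 7.67 in TMZ, 7.83, 7.80 and 7.70 in Anti-PD-1, and 7.68, 7.74 and 7.70 in Combination. All Anti-PD-1 and Combination arrays lay above Control. The differences were 0.18 ± 0.06 in Anti-PD-1 (1.13-fold, limma adjusted p = 0.195), 0.11 ± 0.06 in Combination (0.498) and 0.05 ± 0.06 in TMZ (0.783). Pvalb, the calcium buffer of fast-spiking cells, spread most within groups: 7.14, 7.07 and 6.69 in Control and 6.54, 6.80 and 7.15 in Anti-PD-1. Its differences were -0.13 ± 0.15, -0.14 ± 0.15 and -0.16 ± 0.15. The peptide gene Sst was at 0.01 ± 0.08, 0.02 ± 0.08 and 0.09 ± 0.08, and Npy at 0.07 ± 0.09, 0.08 ± 0.09 and 0.15 ± 0.09.

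**Figure D4:**
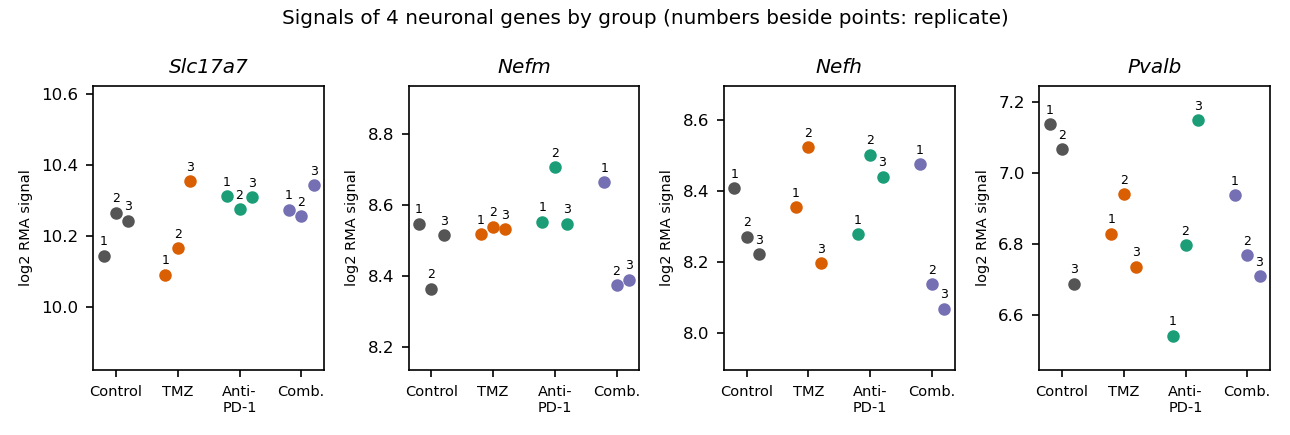
Log2 RMA signals of Slc17a7, Nefm, Nefh and Pvalb by group, with the replicate number beside each point and axes of equal span. In these genes the spread between replicates of 1 group, such as 6.54 to 7.15 in Pvalb under Anti-PD-1, exceeds the distance between group means.

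Treatments were also set against each other. In limma 0 of the 41 genes were called between Combination and TMZ, between Combination and Anti-PD-1 or between TMZ and Anti-PD-1, where 0% of all genes were called in each. At an unadjusted p under 0.05 there was 1 gene (Scn9a) in the first, 0 in the second and 2 (Vip and Scn9a) in the third, against 4.19%, 4.91% and 4.51% of all genes. Scn9a was at -0.25 ± 0.08 in Combination against TMZ and at 0.17 ± 0.08 in TMZ against Anti-PD-1, and Vip at -0.13 ± 0.06 in the latter. The medians of the 41 genes were -0.01, -0.04 and -0.02 log2. In the interaction, which asks whether the difference of Combination from TMZ departs from that of Anti-PD-1 from Control, 36 of 41 genes lay below 0 with a median of -0.10, against -0.02 over all genes, of which 46.2% were above 0. In limma 0 were called (0.00451% of all genes were), and 3 had an unadjusted p under 0.05, Scn9a (-0.55 ± 0.11, adjusted p = 0.196), Scn1a (-0.33 ± 0.10, adjusted p = 0.376) and Slc17a6 (-0.40 ± 0.16, adjusted p = 0.510), all below 0, as did 4.27% of all genes. Scn9a was called without Control replicate 3 (-0.62, adjusted p = 0.0199). With Control replicate 3 as the only Control array, 16 of the 41 genes lay above 0 in the interaction. Their median was then -0.05, against -0.01 over all genes. The moderated F test over the 4 groups called 0 of the 41 genes (0.00451% of all genes), and 3 had an unadjusted p under 0.05 (Scn9a, Scn1a and Vip), where 10.1% of all genes did.

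The 95% intervals show what these arrays can resolve. The median half-width of the interval of a difference from Control was 0.15 log2 over the 41 genes. The highest upper bounds were 0.63 in TMZ, in Scn9a, and 0.47 in Anti-PD-1 and 0.40 in Combination, both in Slc17a6. The lowest lower bounds were -0.46, -0.46 and -0.49, all in Pvalb.

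Further neuronal genes, 198 on 11 lists by role and brain region, had 176 measured members. Of these 142 were higher in TMZ, 147 in Anti-PD-1 and 144 in Combination, where 52.1%, 52.4% and 50.2% of all genes were, with medians of 0.07, 0.09 and 0.08 log2. In limma 0 were called in any of the 3. At an unadjusted p under 0.05 there were 19, 37 and 22 higher, where 5.47%, 6.7% and 5.43% of all genes were, and 0, 1 and 1 lower, where 5.78%, 6.79% and 6.18% of all genes were. Against Control replicate 3 alone there were 89, 114 and 95 of 176 higher (51%, 51.8% and 50.4% of all genes), with medians of 0.00, 0.03 and 0.01. Glutamate receptor genes were higher in 14, 15 and 13 of 16 cases, led by the kainate receptor gene Grik1 at 0.24 ± 0.07, 0.32 ± 0.07 and 0.29 ± 0.07 (adjusted p = 0.226, 0.0775 and 0.172). Sodium and calcium channel genes were higher in 16, 18 and 16 of 19, with the T-type calcium channel gene Cacna1g at 0.31 ± 0.07 in Anti-PD-1 (adjusted p = 0.0947). Potassium and HCN channel genes were higher in 20, 18 and 19 of 21, and axon initial segment and node genes in 19, 19 and 18 of 20. In the striatal list 1, 0 and 0 of 6 genes were higher, with medians of -0.05, -0.11 and -0.11, and in the thalamic, midbrain and cerebellar list 9, 5 and 6 of 11, with medians of 0.08, -0.02 and 0.00. Leaving out Control replicates 1 and 2, the counts higher were 12, 14 and 9 of 16 for glutamate receptors, 13, 17 and 13 of 19 for sodium and calcium channels, 14, 16 and 12 of 21 for potassium and HCN channels, 11, 14 and 13 of 20 for initial segment and node genes, 3, 1 and 1 of 6 for striatal genes and 8, 5 and 7 of 11 for the thalamic list. In the same setting release machinery genes were higher in 6, 11 and 10 of 21 cases. Postsynaptic scaffold and adhesion genes were higher in 7, 12 and 10 of 18, and GABA and glycine genes in 5, 10 and 6 of 16. Neuropeptide and interneuron genes were higher in 6, 8 and 7 of 15, and cortical and hippocampal genes in 4, 6 and 7 of 13. Arc, an activity-induced postsynaptic gene, was at -0.25 ± 0.14, -0.40 ± 0.14 and -0.34 ± 0.14 (adjusted p = 0.517, 0.223 and 0.376).

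Other brain and tumour cells were read from marker lists on the same arrays. Their part in the neuronal values was not tested. Proliferation genes, from Mki67 to Birc5, were lower in 11 of 11 cases in each comparison, with medians of -0.80, -0.78 and -0.87 log2 and 1, 4 and 0 called, where 0.0992%, 0.293% and 0% of all genes were. They were also lower in 11 of 11 in each without Control replicates 1 and 2, with smaller medians of -0.54, -0.57 and -0.53. Their array means were highest in Control replicates 2 (0.89) and 1 (0.77), where the neuronal means were lowest, followed by Control replicate 3 (0.28). Treated arrays ranged from -0.37 to -0.06. Glioma and progenitor genes were lower in 9 of 12 cases in each, with array means from 0.03 to 0.30 in Control and from -0.19 to 0.05 in treated arrays. Among them Myc was called in Anti-PD-1 (-0.67 ± 0.11, limma adjusted p = 0.0432), where 0.293% of all genes were. Microglia markers were lower in 11, 11 and 7 of 11 cases, and endothelial markers higher in 11, 10 and 10 of 12, with the highest array mean in TMZ replicate 2 (0.36). Oligodendrocyte genes were higher in 1, 5 and 1 of 11 cases, with medians of -0.10, -0.02 and -0.11, and astrocyte genes in 7 of 12 in each, with medians of 0.05, 0.03 and 0.04. Choroid plexus and ependymal genes were higher in 6, 4 and 5 of 9 cases and T cell genes in 2 of 8 in each. Against Control replicate 3 alone, oligodendrocyte genes were higher in 7, 9 and 5 of 11, astrocyte genes in 8, 8 and 9 of 12, endothelial genes in 12, 11 and 11 of 12, microglia genes in 3, 4 and 6 of 11, glioma and progenitor genes in 6, 2 and 6 of 12, choroid plexus and ependymal genes in 7, 4 and 6 of 9 and T cell genes in 4, 5 and 3 of 8.

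**Figure D5:**
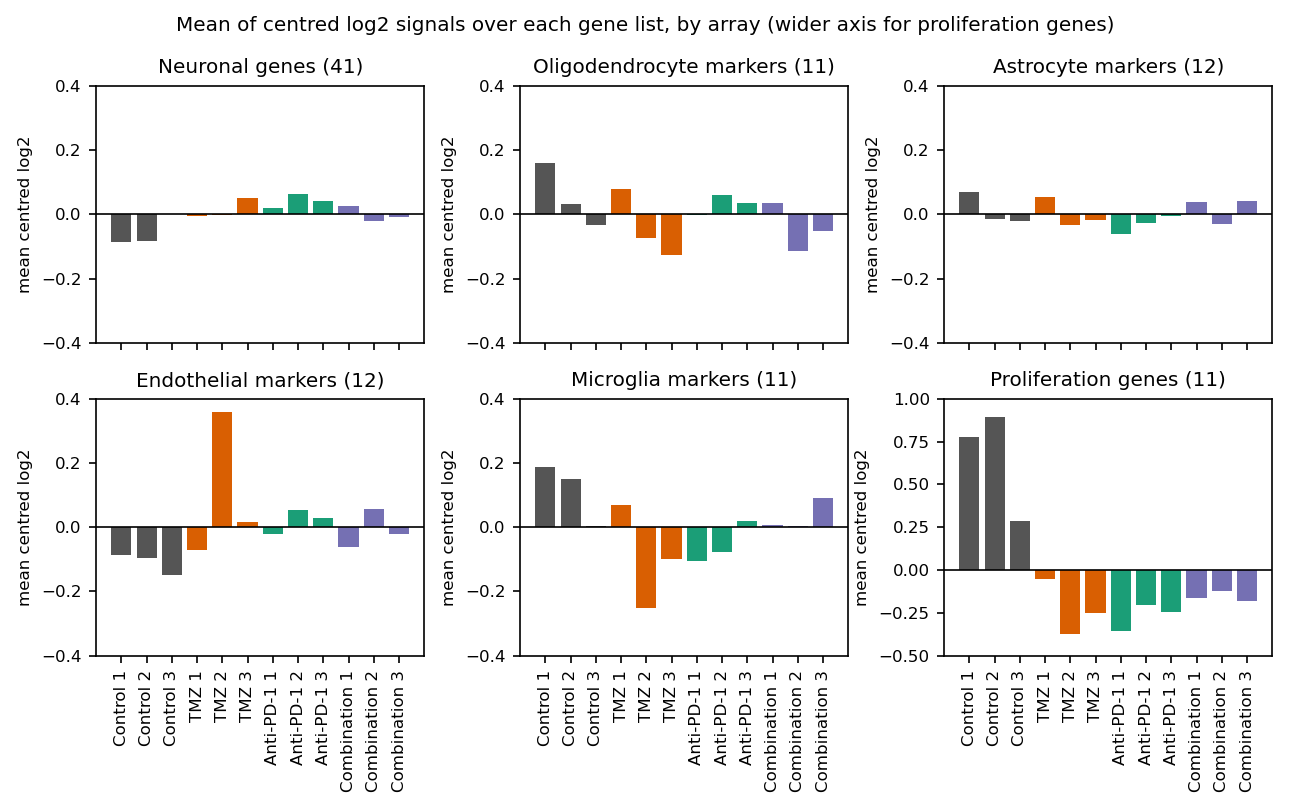
Mean over each gene list of the centred log2 signal, from which the gene's 12-array mean was subtracted (bars, 1 per array, coloured by group), for the 41 neuronal genes and 5 marker lists; the proliferation panel has a wider axis. Control replicates 1 and 2 have the lowest neuronal bars (-0.08 each) and the highest proliferation bars (0.77 and 0.89).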

How the data were processed

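Biotin-labelled cDNA made from total RNA of tumour masses was hybridised to 12 whole-transcript arrays. The authors processed them with RMA in Affymetrix Expression Console, per the submitters' processing notes, which give no version here. The deposited values are log2 RMA signals of 41345 probe sets, from 1.24 to 13.1, with array medians from 5.06 to 5.12. RMA quantile normalises the arrays to 1 distribution, which can hide shifts shared by most genes. Of the probe sets, 23521 carried 1 symbol, 1814 several and 16010 were not listed. Symbols came from the array annotation, which can be old; 21994 of the 22180 genes, all 41 described here among them, were matched by gene number, with 0 changed symbols. No filter on brightness was applied.

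Genes were fitted with limma 3.58.1 in R 4.3.3 (1 mean per group, all 12 arrays, 8 residual degrees of freedom, eBayes defaults, two-sided, Benjamini-Hochberg over all genes). The fit was tested on simulated data. Errors are SE of differences and SD of means. The genes and lists were chosen with earlier results of these data known, so no list is tested as a whole. Genes given array by array are those called in any comparison, the 5 with the smallest p in each comparison with Control and the smallest F test p of each role, 12 in all; of the further lists, at most the 2 genes with the smallest p. Alternatives were each array left out, a variance trend, dim genes left out (mean below the median gene), all probe sets tested, only the groups compared fitted, the replicate block, array medians subtracted, and the mean of a gene's probe sets. Leaving out Control replicates 1 and 2 together was added after the data were seen.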

Additional observations from a re-analysis of the deposited data

Results flagged for a closer look

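A probe set outside the measurement above, 17371281, is listed under both Scn9a and Gm13629, a long noncoding RNA gene that overlaps Scn9a in the RefSeq annotation. Its log2 signals were 6.42, 6.56 and 6.56 in Control, 6.66, 6.83 and 6.79 in TMZ, 6.65, 6.88 and 6.82 in Anti-PD-1, and 6.87, 6.71 and 6.48 in Combination. It drew attention because all TMZ and all Anti-PD-1 arrays lay above the highest Control array, with differences of 0.25 ± 0.11 (SE) and 0.27 ± 0.11 and a limma adjusted p of 0.451 and 0.333 among all probe sets. Combination overlapped with Control (0.17 ± 0.11). Which of the 2 genes the signal belongs to cannot be told apart here.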

How the results depend on the processing

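The calls depended on the Control arrays and on the choices made in the fit. Of the 41 genes, the count called in TMZ was 1 in place of 0 with a variance trend, with dim genes left out and with array medians subtracted, each time Scn9a. Leaving out 1 array gave 0 to 1 calls in TMZ, 0 to 2 in Anti-PD-1, 0 to 1 in the interaction and 0 to 1 in the F test, with the higher count in each without Control replicate 3. The median difference in TMZ was 0.0329 to 0.0842 when 1 array was left out, the highest without Control replicate 3. Without Control replicates 1 and 2 together the medians were -0.0141 in TMZ, 0.0452 in Anti-PD-1, -0.0144 in Combination and -0.0496 in the interaction, with 1 Control array assumed to vary like the other groups. The cause was not tested.

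Signs turned without Control replicates 1 and 2 in TMZ for Gria2 (-0.0278), Scn2a (-0.0367), Grin2b (-0.0469), Map2 (-0.0227) and Stx1a (-0.111), in Anti-PD-1 for Map2 (-0.0247), in Combination for Scn1a (-0.0693), Gad2 (-0.0144), Eno2 (-0.0122), Gria2 (-0.0375), Scn2a (-0.0488) and Stx1a (-0.0240), and in the interaction for Grin2b (0.0293) and Stx1a (0.0348). With the mean of its probe sets Grin2b in TMZ was -0.00793. With 1 array left out, Stx1a in TMZ ran from -0.0583 to 0.118, below 0 without Control replicate 1 or TMZ replicate 3. Map2 in the interaction ran from -0.0193 to 0.0341, below 0 without Control replicate 3 or Combination replicate 2, and was -0.00713 with array medians subtracted.

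Subtracting array medians moved the median of all genes from 0.01 to 0.03 in TMZ and in Anti-PD-1 and from 0.00 to 0.02 in Combination. Over all genes, 22 were called in TMZ, 65 in Anti-PD-1 and 0 in Combination, against 113, 381 and 42 with a variance trend, 14, 205 and 3 with dim genes left out, 1, 2 and 0 over all probe sets, and 0 in each with only the groups compared fitted or without Control replicates 1 and 2. Leaving out 1 array gave 0 to 363, 1 to 686 and 0 to 282, the highest without Control replicate 3. Same-numbered arrays correlated at over 0.1 in 1 of 18 pairs (range -0.16 to 0.16), and 4 of 12 arrays correlated best with their own number. No clear pairing by number was seen, though so few arrays cannot exclude a weak one. With the replicate block 4, 20 and 0 genes were called, and 0 of the 41 in TMZ, Anti-PD-1 or Combination. Fits of only the groups compared gave no interaction or F test.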

Other observations

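Markers of brain regions differed between arrays of 1 group. These genes were picked after their values were seen. Within Combination, all 6 striatal genes measured had their lowest value of the 12 arrays in replicate 1, as did 6.01% of all genes. Against means over the list of 0.01 and 0.16 log2 in replicates 2 and 3, replicate 1 lay at -0.32. The dopamine receptor genes Drd1 and Drd2 read 6.75 and 7.89 there, against 7.10 and 8.30 in replicate 2 and 7.39 and 8.44 in replicate 3. The same array was the highest of its group for Slc17a6 (8.80), for the neurofilament genes Nefm (8.66) and Nefh (8.48), and for the list of thalamic, midbrain and cerebellar genes (0.16, against -0.05 and -0.13).

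Within TMZ, the thalamic, midbrain and cerebellar list lay at 0.08, 0.18 and -0.13 in replicates 1 to 3, and Slc17a6 at 8.87, 8.93 and 8.54. The cortical genes Slc17a7, Grin2a and Nrgn had their highest TMZ value in replicate 3 (10.36, 8.96 and 10.76). That array was the highest of the TMZ arrays for 25 of the 41 neuronal genes, so this was not particular to cortical genes. Control replicate 1 had the highest striatal mean of all arrays (0.22). The labels do not say which brain region surrounded each mass.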
